A study of Mus musculus with 4 samples.

Results

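Pigment enzymes and melanosome proteins were followed across 4 microarrays of endothelial cells sorted from tumors of B16, a pigmented mouse melanoma line of C57BL/6 origin. The members were 10 genes taken by symbol: Tyr, Tyrp1, Dct, Pmel, Mlana, Slc45a2, Oca2, Gpr143, Slc24a5 and Trpm1. Of these, 9 had at least 1 probe set with that symbol, out of 18193 named genes in all, while the expression of Slc24a5 was not analysed here. The 9 genes had 17 of the 45037 probe sets tested, and the brightest probe set on average stood for its gene.

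All tumors were grown for 2 weeks in C57BL/6 mice with a multicolor Cre reporter, where tamoxifen marks cells and their descendants with 1 of several colors. The labels give neither the promoter that drives Cre nor the age of the mice. Cells that were CD45-, CD31+ and CD144+, an endothelial gate, were sorted from tumor A and from tumor B. From each tumor came 1 array of its most frequent clone, called expansion, and 1 of its least frequent, called extinction, which makes 2 arrays per class. A color is not proof of a single clone, since unrelated cells can take the same one.

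Melanin is made inside melanosomes, lysosome-related organelles of melanocytes and of pigmented melanoma cells. Tyrosinase and its relatives build the pigment, a fibril protein gives it a scaffold, and membrane transporters set the ion balance and acidity in which the enzymes work. The transcription factor MITF drives many of these genes through a short promoter element called the M-box. Endothelial cells are not known to make melanin.

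The element was looked for in RefSeq promoter windows of build GRCm38.p6, which run from 250 bases before to 50 bases after a start site, 300 bases in all. The search used the M-box core TCATGTG and the E-box CACGTG on both strands; the 2 words cannot overlap. Windows were at hand for 6 members, with 2 for Trpm1. The following stretches are shown because the same word recurs in members of the set, of which Tyr, Tyrp1, Dct and Trpm1 were measured and Slc24a5 was not; each is written 5′ to 3′ on the strand of the gene, with the core, or its reverse complement, in capitals.
Tyr (chr7:87493508-87493554, minus strand): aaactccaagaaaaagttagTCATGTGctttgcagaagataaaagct
Tyrp1 (chr4:80834146-80834192, plus strand): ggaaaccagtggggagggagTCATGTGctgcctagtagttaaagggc
Dct (chr14:118052371-118052417, minus strand): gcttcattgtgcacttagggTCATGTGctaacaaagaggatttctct
Trpm1 (chr7:64153673-64153719, plus strand): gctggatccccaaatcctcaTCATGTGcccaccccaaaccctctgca
Slc24a5 (chr2:125068094-125068140, plus strand): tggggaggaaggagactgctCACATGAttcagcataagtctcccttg

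The core began 22 bases before the start site in Tyr, 47 in Tyrp1, 151 in Dct and 142 in Trpm1, and its reverse complement began 13 bases before that of Slc24a5. Dct held another copy, on the opposite strand, 232 bases before its start site. The core was thus in 5 of the 7 member windows, which belong to 5 of the 6 genes, against 3.77% of all 32851 promoter windows. Tyr, Tyrp1 and Dct shared the longer run GTCATGTGCT, which 0.186% of all windows held. That run was made by extending the core for as long as the windows of these genes agreed, so their sharing it is no independent result. Neither the core nor the run was in the window of Oca2 or in the second window of Trpm1. That second window held the E-box word, the single member window of 7 to do so, against 7.15% of all windows. A match describes the letters and does not show binding.

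Before the member values, the gate was checked against its markers. The 20 pan-endothelial genes had median log2 levels of 8.42 on expansion A, 10.73 on extinction A, 11.26 on expansion B and 9.69 on extinction B. On expansion A the median of all probe sets was 5.80. The gate markers CD31 (Pecam1) and CD144 (Cdh5) were at 6.16 and 8.69 there, and the endothelial genes Kdr and Eng at 8.82 and 9.73. Tie1 at 5.30 and Tek at 5.78 lay below that median, and the highest of the list was Ptprb at 12.36. On extinction B, Pecam1 and Cdh5 were at 6.90 and 9.80. Ptprb went the other way. It was at 12.36 on expansion A and 12.26 on extinction B, against 11.36 on extinction A and 11.86 on expansion B. Vwf was nearly level in tumor A (expansion minus extinction -0.05). By the list median, expansion A and extinction B lay below the other arrays, extinction B less so than expansion A. The member values are given with and without these arrays. The 16 leukocyte genes had medians between 5.04 and 5.26 on the arrays. CD45 (Ptprc), the marker the gate excluded, lay between 3.63 and 4.27. Not all of that list was low, since Csf1r lay between 8.11 and 9.97 and Lcp1 between 7.29 and 9.78. The 10 fibroblast genes had medians between 11.10 and 12.94, although the gate was for endothelial cells. Precision is limited by the number of arrays. Values are log2 RMA, so a difference of 1 is 2-fold.

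Every measured pigment gene was bright on expansion A and extinction B and far lower on extinction A and expansion B. In tumor A the array of the most frequent clone had higher pigment gene values than that of the least frequent clone. The median difference was 4.70 on the log2 scale over the 9 genes, where the median over all genes was -0.04. In tumor B the array of the most frequent clone had lower values, with a median difference of -5.76 against 0.07 over all genes. All 9 genes were at least 2-fold higher in expansion of tumor A, as were 5.89% of all genes, and all 9 were at least 2-fold lower in expansion of tumor B, as were 4.77%. Both held for 9 of 9, against 3.14% of all genes. There was 1 array for each combination of class and tumor, so these differences have no replicate check and no test. In sorted cells measured in bulk, fewer pigmented cells and less pigment RNA per cell cannot be told apart.

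**Figure D1:**
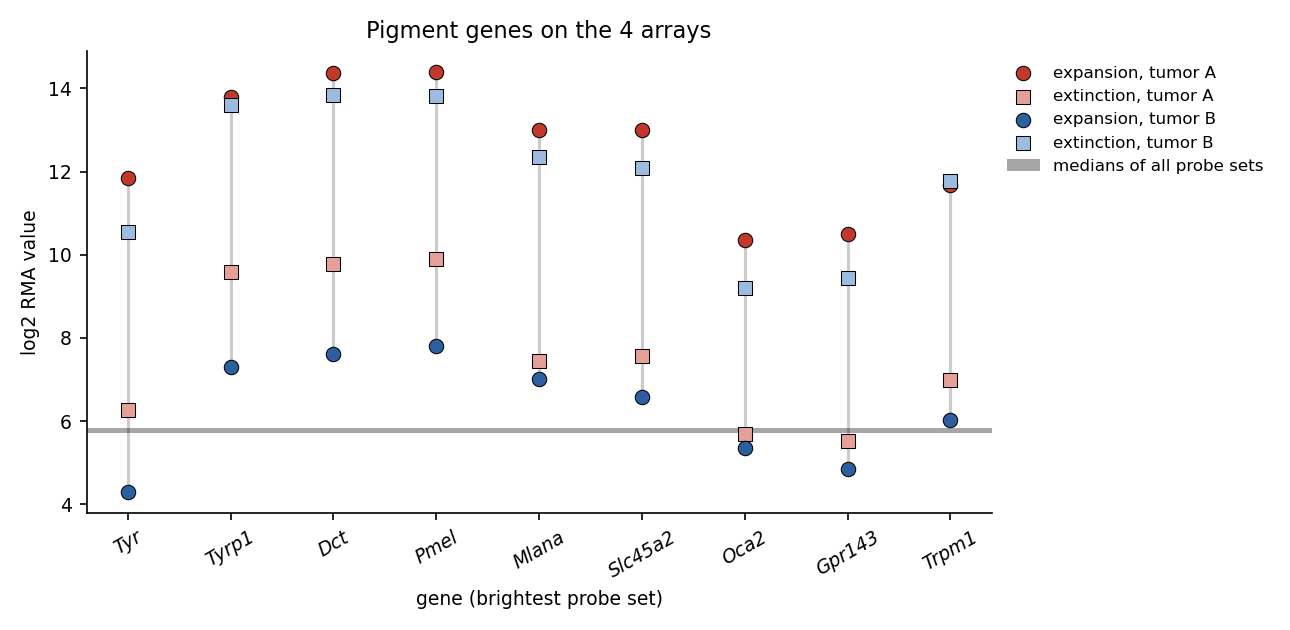
Log2 RMA value (y axis) of the brightest probe set of each of the 9 pigment genes (x axis) on the 4 arrays; circles are expansion, squares extinction, red tumor A and blue tumor B, and the grey band spans the array medians of all probe sets. For each gene the circle of tumor A and the square of tumor B lie high, the other 2 low, and Tyr, Oca2 and Gpr143 reach or pass below the band.

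Among the enzymes, tyrosinase (Tyr), which catalyses the first and rate-limiting step from tyrosine, was at 11.85 on expansion A, 6.27 on extinction A, 4.30 on expansion B and 10.55 on extinction B. Its 2 high arrays belonged to different classes and different tumors, and the classes overlapped. The differences of the log2 values were 5.58 in tumor A and -6.26 in tumor B. Tyr ran from a level that 2.26% of probe sets exceeded on expansion A to one that 79.3% exceeded on expansion B. The deposited values carry no detection call, so a difference from so low a level is that of the values and no exact fold of transcript. Of the members it had the widest range over the arrays, 7.55.

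Tyrosinase-related protein 1 (Tyrp1), which acts late in the synthesis of brown-black eumelanin, was at 13.80, 9.59, 7.31 and 13.61 on expansion A, extinction A, expansion B and extinction B. On this brightest probe set its bright arrays lay within 0.19 of each other, while extinction A exceeded expansion B by 2.28. The same gaps were 0.38 and 2.95 on 1415861_at, and 1.51 and 1.42 on 1415862_at. By the brightest probe sets, the Tyrp1 class difference of 4.21 in tumor A was the smallest among the members, and that of -6.30 in tumor B was the largest in size. Dopachrome tautomerase (Dct), which converts dopachrome to a carboxylated eumelanin precursor, was at 14.36, 9.79, 7.62 and 13.84 in the same order. Only 0.0933% of probe sets were brighter than Dct on expansion A and 0.318% on extinction B, whereas 27.5% were on expansion B. By the brightest probe sets, the class differences of the 3 enzymes thus ran from 4.21 to 5.58 in tumor A, and in tumor B from -6.30 to -6.22. The other probe sets of Tyr and Tyrp1, given below, spread more widely in both tumors.

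Pmel encodes the protein whose amyloid fibrils form the striated scaffold on which melanin is laid down. It was at 14.40 on expansion A, 9.90 on extinction A, 7.80 on expansion B and 13.82 on extinction B. The array maxima were 15.03 on expansion A and 14.97 on extinction B, so Pmel lay near the top of the scale there, with 0.0777% of probe sets brighter on expansion A. The classes differed by 4.50 in tumor A and by -6.02 in tumor B. Mlana (MART-1), a small membrane protein of early melanosomes that binds Pmel, was at 12.99, 7.45, 7.01 and 12.35 in the same array order. Its class differences, 5.54 and -5.34, were nearly equal in size, unlike those of Pmel.

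The transporters moved the same way. Slc45a2, a sugar and proton transporter that keeps melanosomes from becoming too acidic, was at 13.00 on expansion A, 7.58 on extinction A, 6.59 on expansion B and 12.09 on extinction B. Its differences of 5.42 and -5.49 made it the member nearest to the mean pattern of them all. Oca2, a melanosomal chloride transport protein, was at 10.37, 5.69, 5.34 and 9.19 in that order. On extinction A and expansion B, 50.5% and 57.0% of probe sets were brighter than Oca2, so it lay at or just below the middle of those arrays. Its class differences were 4.68 and -3.85, the latter the smallest in tumor B, and it lay farthest from the mean pattern.

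Gpr143, a G protein-coupled receptor of melanosomes that governs their size and number, was at 10.50, 5.53, 4.84 and 9.43 on expansion A, extinction A, expansion B and extinction B. It differed by 4.97 in tumor A and by -4.59 in tumor B, and like Oca2 it fell below the array median on both low arrays. Trpm1, a cation channel of melanocytes and of retinal bipolar cells, was at 11.69, 6.99, 6.02 and 11.78. It differed by 4.70 and -5.76 and, by the brightest probe sets, was the one member with extinction B above expansion A, by 0.09. The other Trpm1 probe sets had expansion A higher, by 1.64 (1418935_at), 0.57 (1437531_at) and 0.54 (1440241_at). The other 8 members shared the order expansion A, extinction B, extinction A, expansion B from high to low, which 8.53% of all genes had.

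The members ranked near the top of all genes. In both tumors 8 of the 9 differed at least 16-fold, higher in expansion of tumor A and lower in expansion of tumor B, as did 0.214% of all genes; these were 39 genes, 8 of them pigment genes. The ninth, Oca2, did not reach 16-fold in tumor B, where its value of 5.34 on expansion B lay below the array median of 5.77. When genes were ordered by the tumor A difference minus the tumor B difference, Tyr came in place 2 of 18193 with 11.83 and Oca2, the lowest member, in place 42 with 8.53.

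**Figure D2:**
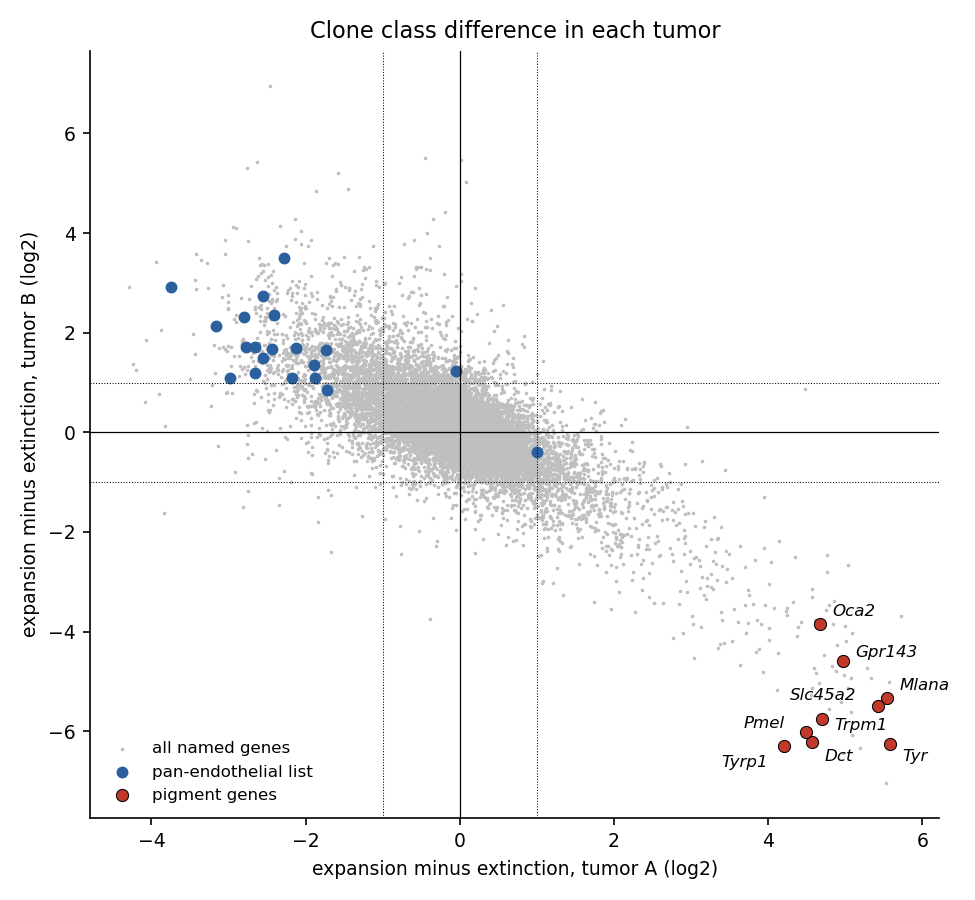
Expansion minus extinction on the log2 scale in tumor A (x axis) and tumor B (y axis) for all 18193 named genes (grey), the 20 pan-endothelial genes (blue) and the 9 pigment genes (red, named); dotted lines mark 2-fold. The pigment genes lie between 4.21 and 5.58 on x and between -6.30 and -3.85 on y, in the opposite corner from 19 of the 20 endothelial genes.

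The comparison of clone classes over both tumors asked whether the most frequent clones differed from the least frequent. For Tyr the mean difference was -0.34 ± 3.31 (SE, n = 2 per class), with an adjusted p of 1 by limma (Benjamini-Hochberg over all 45037 probe sets). The mean differences of the 9 genes lay between -1.05 and 0.41, with 3 above and 6 below 0, and their standard errors between 2.34 and 3.31. Each mean was smaller than its standard error, and limma's 95% interval for Tyr ran from -10.13 to 9.45. Such an interval leaves room for large differences either way and does not show that the classes were alike. No member probe set passed, and none of the 17 had an unadjusted p under 0.05 (smallest 0.476); limma called 0% of all probe sets (0 of 45037, with 469 at an unadjusted p under 0.05).

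Which array was left out set the direction. The mean difference of Tyr was -4.12 without expansion A, 3.44 without expansion B, 1.80 without extinction B and -2.48 without extinction A. With both arrays of lower endothelial signal left out, expansion B lay below extinction A for each of the 9 genes by its brightest probe set. The gap ran from 0.35 for Oca2 up to 2.28 for Tyrp1. Among the other probe sets, extinction A minus expansion B was -0.15 on 1418935_at of Trpm1 and -0.04 on 1448821_at of Tyr. This last comparison sets 1 array of tumor B against 1 of tumor A, so class and tumor cannot be told apart in it.

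Between the tumors, tumor B lay below tumor A on average for all 9 genes, by values from -0.44 for Trpm1 to -1.64 ± 3.17 (SE, n = 2 per tumor) for Tyr. By limma every member probe set had an adjusted p of 1 (smallest unadjusted p 0.469), and limma called 0% of all probe sets, with 648 at an unadjusted p under 0.05. Within the expansion class, tumor B was lower than tumor A by 5.02 (Oca2) to 7.55 (Tyr) on the log2 scale. Within the extinction class it was higher, by 3.50 (Oca2) to 4.90 (Mlana). The tumor averages therefore joined large differences of opposite sign in the 2 classes.

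The members did not all differ by the same amount between arrays of like level, in values that reuse the 4 arrays above. Expansion A exceeded extinction B by a median of 0.64 over the 9 genes, where all genes had 0.04. At least 2-fold were Tyr at 1.30, Oca2 at 1.17 and Gpr143 at 1.07, which is 3 of 9 against 1.62% of all genes. Which genes passed depended on the probe set. The other Tyr probe sets gave 0.47 and 0.65, below 2-fold. Tyrp1 gave 1.51 on 1415862_at and Trpm1 gave 1.64 on 1418935_at, both above it. Extinction A exceeded expansion B by a median of 0.98, where all genes had 0.01. Here Tyrp1 at 2.28, Dct at 2.17, Pmel at 2.10 and Tyr at 1.98 passed 2-fold, 4 of 9 against 2.11% of all genes. The other 5 lay between 0.35 (Oca2) and 0.98 (Slc45a2). No replicate measures the error of these values, and Tyr on expansion B, and Oca2 and Gpr143 on both low arrays, lay below the array median, where the low end of the scale limits a difference.

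All 17 probe sets of the members were higher in expansion of tumor A and lower in expansion of tumor B, and 16 were at least 2-fold so in both. The genes with several probe sets were Tyr, Tyrp1, Slc45a2 and Trpm1, and the size of their differences depended on the probe set. For Tyr, 1456095_at gave 5.57 and -6.37, close to the main probe set, but 1448821_at gave 1.75 and -1.07. That dimmer probe set was at 6.68 on expansion A and at 4.93 and 4.97 on extinction A and expansion B, where about the same share of probe sets was brighter (64.5% and 64.3%). It showed no excess of extinction A over expansion B (-0.04), whereas 1456095_at showed 1.27.

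For Tyrp1, 1415861_at gave 4.58 and -7.15 and 1415862_at gave 5.92 and -5.83, so the 3 probe sets had the same directions and sizes of at least 4.21. The second Slc45a2 probe set gave 5.11 and -4.66. The 4 probe sets of Trpm1 spread most. Beside the main one, 1418935_at gave 5.08 and -3.29, 1437531_at gave 2.01 and -1.88, and 1440241_at gave 0.77 and -0.23. The last, at 5.68 on its brightest array with 51.9% of probe sets above it, was the member probe set that stayed under 2-fold.

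**Figure D3:**
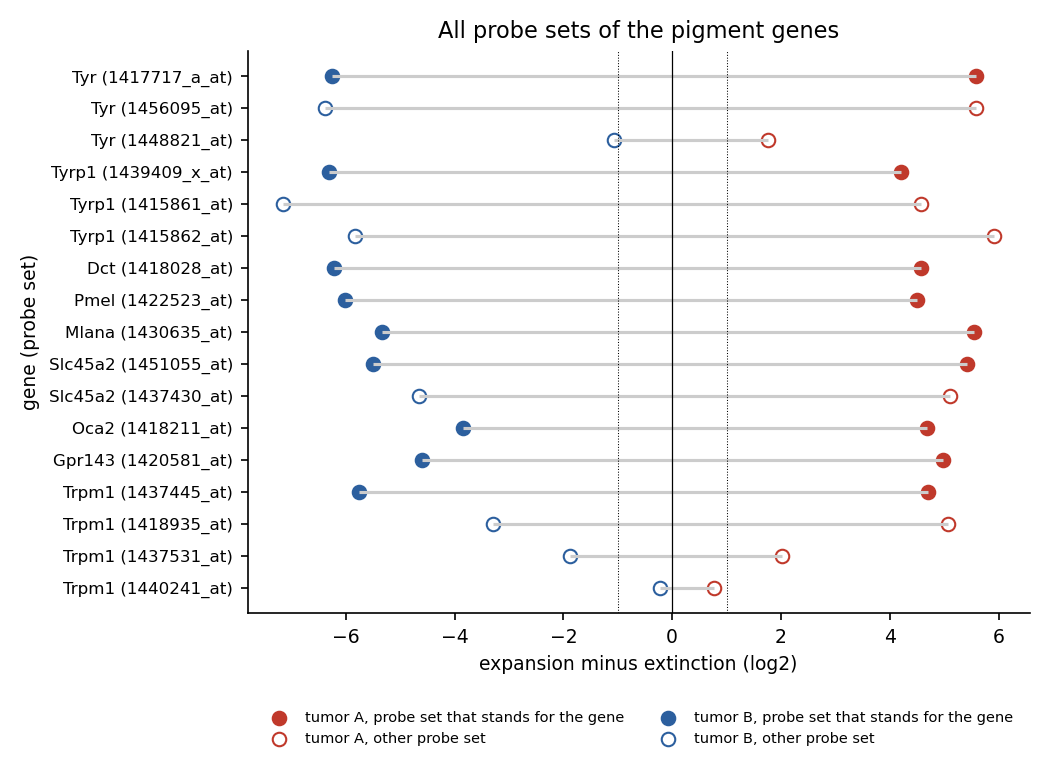
Expansion minus extinction on the log2 scale (x axis) for each of the 17 probe sets of the 9 pigment genes (y axis), red in tumor A and blue in tumor B; filled points stand for the gene, open points are its other probe sets, and dotted lines mark 2-fold. Red points lie right of 0 and blue points left of it in every row, with the shortest spans for 1448821_at of Tyr and 1440241_at of Trpm1.

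Genes that build and move melanosomes followed the pigment genes in part. Of 24 measured genes of the biogenesis and transport list, 10 were at least 2-fold higher in expansion of tumor A and lower in that of tumor B (3.14% of all genes were), and none was so the other way round. The list medians were 1.24 in tumor A and -0.46 in tumor B, against 4.70 and -5.76 for the pigment genes. Mlph, the linker between melanosomes and myosin Va, differed by 4.98 and -4.87. Rab27a, the small GTPase that recruits Mlph, differed by 4.63 and -4.83, and Rab38, a GTPase that helps bring pigment enzymes to melanosomes, by 4.60 and -3.76.

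Other genes of that list barely varied. Tpcn2, an endolysosomal cation channel, ranged over 0.22 across the 4 arrays. It lay between 4.93 and 5.15, below every array median, so its flat values do not show a constant transcript. Hps6, a subunit of the BLOC-2 trafficking complex, ranged over 0.31, and Rabggta, a Rab prenyltransferase subunit, over 0.45.

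Of the 18 melanocyte regulators, 7 had the 2-fold pattern of the pigment genes and 1 had the reverse. Their median difference was 0.38 in tumor A, and it was -0.34 in tumor B. The widest ranges belonged to Pax3, a neural crest transcription factor, at 4.79 and -5.56, Mc1r, the melanocortin receptor, at 4.89 and -4.79, and the transcription factor Tfap2a, at 3.91 and -3.84. The narrowest were Lef1, Creb1 and Pou3f2, with ranges of 0.12, 0.20 and 0.29. Lef1 lay between 5.03 and 5.15, below every array median, so the same limit holds for it as for Tpcn2. Mitf, named after its values were seen because it acts on the M-box, was at 12.29 on expansion A, 8.84 on extinction A, 8.77 on expansion B and 11.16 on extinction B. The 1 gene with the reverse pattern was the endothelin receptor Ednrb, at -2.23 and 1.26.

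No listed marker of the other cell types had the members' 2-fold pattern, which 3.14% of all genes had. Of the 20 pan-endothelial genes, 17 were at least 2-fold lower in expansion A than extinction A and higher in expansion B than extinction B, as were 5.65% of all genes, with medians of -2.43 and 1.66. Their part in the pigment gene differences was not tested. Retinal pigment epithelium, another pigmented tissue, was looked at through 6 genes; their medians lay between 5.26 and 5.40 on the arrays, and none had the 2-fold pattern. Rpe65, its visual cycle isomerase, lay between 4.13 and 4.42. The list was not low throughout, since Rdh5 lay between 6.53 and 8.35 and Best1 between 6.29 and 7.69. Leukocyte genes had median differences of -0.12 and -0.02, fibroblast genes -1.02 and 0.70, pericyte genes -1.01 and 0.48, keratinocyte genes 0.63 and 0.03, and the 4 measured Schwann cell genes -0.82 and 1.01. None of those lists had a gene with the 2-fold pattern of the pigment genes. At a share of 3.14%, lists this short could lack such a gene in any case. At any size of difference, the members' directions were held by 4 of 9 keratinocyte, 3 of 16 leukocyte, 2 of 6 retinal and 1 of 20 pan-endothelial genes.

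**Figure D4:**
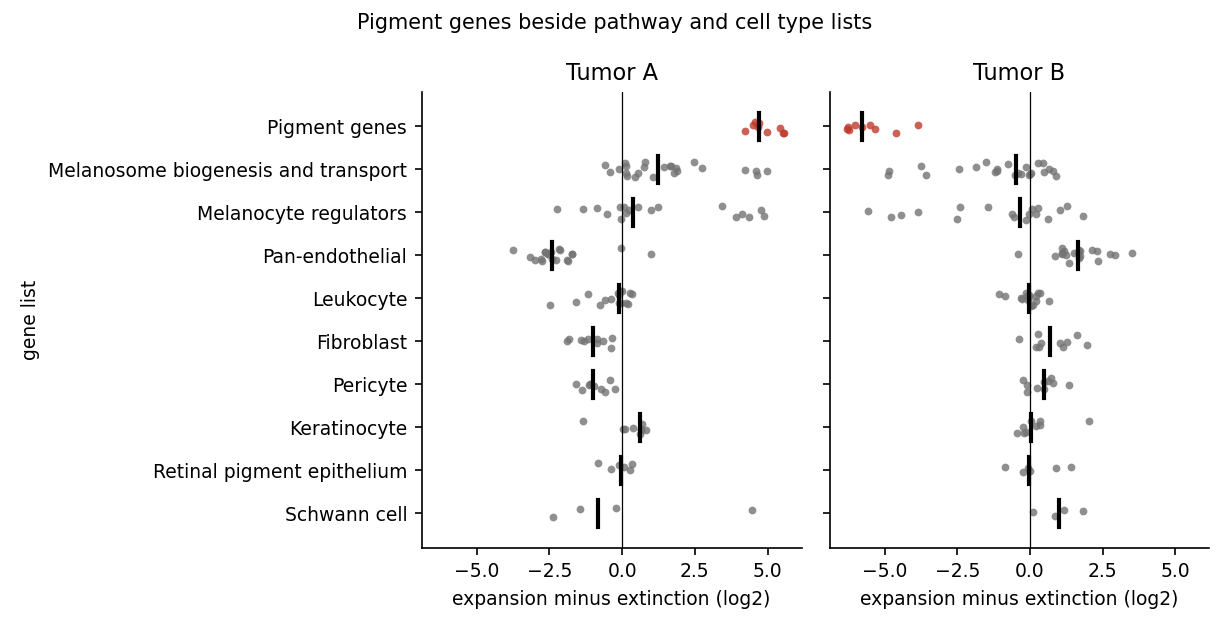
Expansion minus extinction on the log2 scale (x axis) in tumor A (left) and tumor B (right) for the pigment genes (red) and the genes of 9 lists (grey, y axis); a point is a gene and the black bar the median of its list. The pigment genes have medians of 4.70 and -5.76, the pan-endothelial genes -2.43 and 1.66.

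The genes whose pattern was most like that of the members were found by the root mean square distance between values centred on each gene's own mean, over the 4 arrays. Plxnc1, a semaphorin receptor, was nearest at 0.10, followed by Pax3 at 0.11 and Adgb, a globin-like protein gene, at 0.12. The transcriptional coactivator Ppargc1a was at 0.15, the glycine receptor subunit Glrb at 0.23 and the synaptic vesicle protein gene Syngr1 at 0.24. The members themselves lay between 0.19 (Slc45a2) and 0.62 (Oca2) from their mean pattern. Plxnc1 was at 11.24 on expansion A, 6.40 on extinction A, 5.21 on expansion B and 10.47 on extinction B.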

How the data were processed

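The authors deposited 1 log2 value per probe set and array of 4 Affymetrix Mouse430_2 arrays, made by RMA in affy, according to the submitters' processing notes. No source used here gives versions. RMA corrects background, quantile-normalizes the arrays and summarises probes, so a value depends on all 4 arrays. Per the labels' protocols, RNA was amplified in 2 rounds after TRIzol extraction, which can enlarge differences between samples with little RNA.

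Class and tumor came from the labels. Of 45101 probe sets, 64 controls were set aside. Symbols came from the platform annotation, updated by gene ID with RefSeq GRCm38.p6, which changed 0 symbols; 34945 probe sets had 1 symbol, 932 had several and 9160 had none listed. Promoters came from RefSeq (GRCm38.p6), matched by symbol for 6 of 10 members, and protein sequences were not used here. The members, lists and tests were chosen with earlier results of these data known. The rule for named genes covered the 10 members, the 3 widest and 3 narrowest ranges of both pathway lists and the 6 genes nearest in pattern.

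The tests used limma 3.58.1 under R 4.3.3 (lmFit, eBayes, two-sided), adjusted by Benjamini-Hochberg at 0.05. There were 2 residual degrees of freedom, with 1.45 prior degrees of freedom for class and 1.49 for tumor. The code was run on simulated arrays, where large effects had to be called only with the spread capped. That check does not show what differences these arrays could detect. With n of 2, p-values measure only the spread between these arrays. Same-numbered arrays come from the same tumor per the labels, so the numbers pair them; their deviations from the class means correlated at -0.670 over 45037 probe sets. Alternatives were tumor as a replicate block, class as a term, trend and robust eBayes, 2 other scalings, brighter probe sets only, averaged probe sets per gene, fold thresholds of 1.5 and 4, and each array left out. The crossed numbers as a block, and expansion B against extinction A alone, were added after seeing the data.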

Additional observations from a re-analysis of the deposited data

Results flagged for a closer look

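For each of the 9 measured pigment genes, the difference between the most and the least frequent clone had one sign in tumor A and the other in tumor B. The tumor A difference minus the tumor B difference, on the log2 scale, was 11.83 for Tyr, 10.91 for Slc45a2, 10.88 for Mlana, 10.79 for Dct, 10.52 for Pmel, 10.51 for Tyrp1, 10.46 for Trpm1, 9.56 for Gpr143 and 8.53 for Oca2. It was not tested whether the tumors differ in this, since each class has 1 array per tumor. The pan-endothelial list had -4.09 for the same quantity, taken over its medians, and its part was not tested.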

How the results depend on the processing

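The count of probe sets called stayed at 0 in the class comparison and in the tumor comparison under every alternative run, tumor as a replicate block included (0 calls, 128 probe sets at an unadjusted p under 0.05), so the block changed no call. The crossed numbers as a replicate block called 0 probe sets as well. Over single arrays left out, the counts ranged from 0 to 0. All 9 pigment genes kept differences of at least 2-fold, of opposite sign in the tumors, with probe sets averaged per gene, with array medians subtracted and with quantile normalization again, and also at thresholds of 1.5-fold and 4-fold, while the share of all genes apart in opposite directions was 8.78% at 2-fold, 18.2% at 1.5-fold and 1.81% at 4-fold. With probe sets averaged per gene the class difference turned to 0.094 for Slc45a2 and 0.17 for Trpm1. In expansion B minus extinction A alone it turned to -0.44 for Mlana, -0.35 for Oca2 and -0.69 for Gpr143. With each array left out in turn, the class difference ranged from -4.12 to 3.44 for Tyr, -4.29 to 2.20 for Tyrp1, -4.19 to 2.55 for Dct, -4.06 to 2.54 for Pmel, -2.89 to 3.09 for Mlana, -3.24 to 3.17 for Slc45a2, -2.10 to 2.93 for Oca2, -2.64 to 3.02 for Gpr143 and -3.36 to 2.30 for Trpm1. The tumor difference ranged from -4.77 to 1.49 for Tyr, -4.38 to 1.92 for Tyrp1, -4.46 to 1.76 for Dct, -4.35 to 1.67 for Pmel, -3.31 to 2.23 for Mlana, -3.69 to 1.80 for Slc45a2, -3.10 to 1.58 for Oca2, -3.36 to 1.61 for Gpr143 and -3.32 to 2.44 for Trpm1. No call was made in any of these fits; each direction followed from which bright or dim array was missing. Values near or below the array medians, as for Tyr on expansion B and for Oca2 and Gpr143 on the low arrays, limit how far a fold can be read.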

Other observations

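Of the 39 genes at least 16-fold higher in expansion of tumor A and lower in expansion of tumor B, 31 were not pigment genes, and they were named after their values were seen. On the fixed pathway lists were 5 of them, Pax3, Mlph, Mc1r, Rab27a and Bcl2. Of the other 26, the vesicle protein gene Syt4 had the largest contrast, at 12.96 on expansion A, 7.44 on extinction A, 5.33 on expansion B and 12.37 on extinction B. Among them were also Gjb2, a gap junction protein gene, with differences of 5.29 and -4.73, and Ptgds, a prostaglandin D synthase gene, with 4.90 and -4.26. The myelin gene Mbp, on the Schwann cell list, was at 9.57 on expansion A, 5.09 on extinction A, 9.28 on expansion B and 8.42 on extinction B, so it was low on extinction A alone and did not share the pattern.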
